A study of Mus musculus with 4 samples.

Results

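The enzymes that make deoxynucleotides, the building blocks of DNA, were followed across mouse embryonic fibroblasts (MEFs) that did or did not express the retinoblastoma protein Rb. Members were the 8 genes Rrm1, Rrm2, Tyms, Shmt1, Dut, Tk1, Dck and Dtymk, picked by gene symbol out of 30874 genes on the array, and all 23 of their probes were read. The 4 cultures, with 1 Illumina mouse BeadChip array each, were MEFs of the mixed strain FVB;129 that carried a conditional Rb gene. Parental MEFs received a solution without TAT-Cre and medium in place of virus. Rb-deleted MEFs received TAT-Cre, a cell-permeable recombinase, and medium in place of virus. WT Rb-HA MEFs received TAT-Cre and a retrovirus for wild-type Rb, and ΔCdk Rb-HA MEFs received TAT-Cre and a retrovirus for a mutant Rb that Cdk kinases cannot phosphorylate at its usual sites. TAT-Cre and virus, or their blanks, were each given as 2 treatments of 1 h, 3 h apart, at the time of deletion, so both exogenous proteins were made by a viral vector and not by the Rb locus. According to the study's methods, every culture had been arrested by contact, released and treated with doxorubicin, which damages DNA, so no array shows undamaged cells. Values of several arrays are given below in the order parental, Rb-deleted, cells with WT Rb-HA, cells with ΔCdk Rb-HA, and ratios to parental in the same order without parental. The comparison asks whether wild-type Rb, which is mono-phosphorylated under these conditions, and Rb that stays un-phosphorylated keep these genes low after DNA damage.

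A cell makes deoxynucleotides by reducing ribonucleotides or by salvaging deoxynucleosides. Ribonucleotide reductase, assembled from the large subunit Rrm1 and the small subunit Rrm2, performs the reduction. Thymidine nucleotides need a branch of their own, in which dUTPase (Dut) yields dUMP, thymidylate synthase (Tyms) methylates it with a folate that serine hydroxymethyltransferase (Shmt1) helps to charge, and thymidylate kinase (Dtymk) phosphorylates the product. Thymidine kinase (Tk1) and deoxycytidine kinase (Dck) salvage deoxynucleosides. Many of these genes are activated by E2F factors as cells enter S phase, and Rb is known as the repressor that binds E2F.

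The sequences before the gene starts are shown first, because several of these genes are textbook E2F targets. Each stretch runs 5′ to 3′ on the gene's own strand and ends at the last base before the RefSeq gene start in build GRCm38.p6. Capitals mark 1 of 4 letter patterns of E2F sites (TTCCCGC or TTCGCGC or TTGGCGC or TTGCCGC) or the pattern CCAAT, read on both strands. Rrm1 lies at chr7:102441575-102441694 (plus strand), Rrm2 at chr12:24708134-24708253 (plus strand), Shmt1 at chr11:60811266-60811385 (minus strand) and Tyms at chr5:30073646-30073745 (minus strand), with its last 20 bases before the start left out because they belong to the annotated gene.
Rrm1: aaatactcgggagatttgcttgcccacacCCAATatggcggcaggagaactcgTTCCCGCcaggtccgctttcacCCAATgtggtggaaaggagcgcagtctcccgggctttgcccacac
Rrm2: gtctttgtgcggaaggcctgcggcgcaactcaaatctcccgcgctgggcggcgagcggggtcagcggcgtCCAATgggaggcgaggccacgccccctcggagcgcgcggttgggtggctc
Shmt1: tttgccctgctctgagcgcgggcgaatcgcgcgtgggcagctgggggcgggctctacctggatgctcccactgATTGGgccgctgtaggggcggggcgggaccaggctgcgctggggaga
Tyms: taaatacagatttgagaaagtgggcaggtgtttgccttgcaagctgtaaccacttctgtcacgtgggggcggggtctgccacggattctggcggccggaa

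Over the 250 bases before the start, an E2F pattern was found for 3 of the 8 members, Rrm1, Rrm2 and Dtymk, and in 7.89% of 32851 promoter windows of 27025 RefSeq genes. Rrm1 held TTCCCGC from base 67 to base 61 before its start, between 2 copies of CCAAT that begin 91 and 45 bases before it. Rrm2 held TTGCCGC on the opposite strand, with the outermost base 235 bases before the start and outside the stretch shown. Dtymk held TTGGCGC that begins 72 bases before its start, in a stretch not shown because it lies within the annotated gene. CCAAT was found for 4 members, those 3 and Shmt1, and in 33.8% of windows. Tyms, Dut, Tk1 and Dck held neither pattern in these windows, which says only that these letters are not there. As for Dtymk, the stretches of Dut and Tk1 are not shown, because most of their bases lie within the annotated gene. Another start of these genes would have another window. The patterns were settled on after other forms had been looked at in the same windows. None of the matches overlapped, and a match describes the letters and not a bound site.

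Of the 23 member probes, 13 were detected on all 4 arrays, 4 on some and 6 on none, where detected means a detection p-value below 0.01. All genes but Dck, 7 in number, had a probe detected on every array. The gene is represented by its brightest probe, the one with the highest mean signal among probes detected on at least 1 array, and the other detected probes are given beside it. Values are deposited intensities in arbitrary units with their bead standard error, and log2 ratios of intensities after background correction and quantile normalization. The bead standard error is the uncertainty of a probe's mean over its beads within 1 array. A ratio is called beyond bead error here when it exceeds 2 of its bead standard errors. With 1 array per group, no value has a biological replicate and no p-value was computed. Bead error leaves out the spread between cultures. Probe positions are counted along the source transcript of each probe, which differs between probes of a gene. All 10 fibroblast markers were detected on every array, and all 4 endothelial markers on none. Of 8 macrophage and leukocyte markers 6 were detected on every array (Ptprc and Fcer1g on none), and their summed intensity was 4254 in parental, 1732 in Rb-deleted, 1454 in WT Rb-HA and 1646 in ΔCdk Rb-HA MEFs. Of 4 epithelial markers 3 were detected, with sums from 206 to 249. Epcam was at background. The part of these differences in the results below was not tested, and fewer cells of a type cannot be told apart from less RNA per cell in such bulk samples. Rb1 itself, by the probe at position 4421, read 543 in parental MEFs and then 160, 181 and 170. Rb1 was therefore low on all 3 arrays of cells given TAT-Cre, and whether this probe matches the viral inserts is not given in the sources used here.

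Rb-deleted MEFs had higher levels of the deoxynucleotide genes than parental MEFs. Parental was the only culture without TAT-Cre, so loss of Rb and exposure to TAT-Cre cannot be told apart in ratios to parental. For both Rb-HA cultures, virus is a further difference from parental. On the Rb-deleted array the 7 genes detected on every array all read above parental beyond bead error, and 6 of the 8 members passed 1.6-fold, the filter the study used. That count was 3 without background correction and also with a larger background offset. Among all 12616 genes analysed 2.14% passed 1.6-fold upward, 26.6% were above parental beyond bead error and 52.3% were above it by any amount. The median log2 ratio was 0.84 for the members, a 1.79-fold difference, and 0.02 for all genes. Tyms stood highest at 1.05. The 6 genes past the filter were Rrm1, Tyms, Shmt1, Dut, Tk1 and Dtymk, and Rrm2 lay just under it at 0.65.

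**Figure D1:**
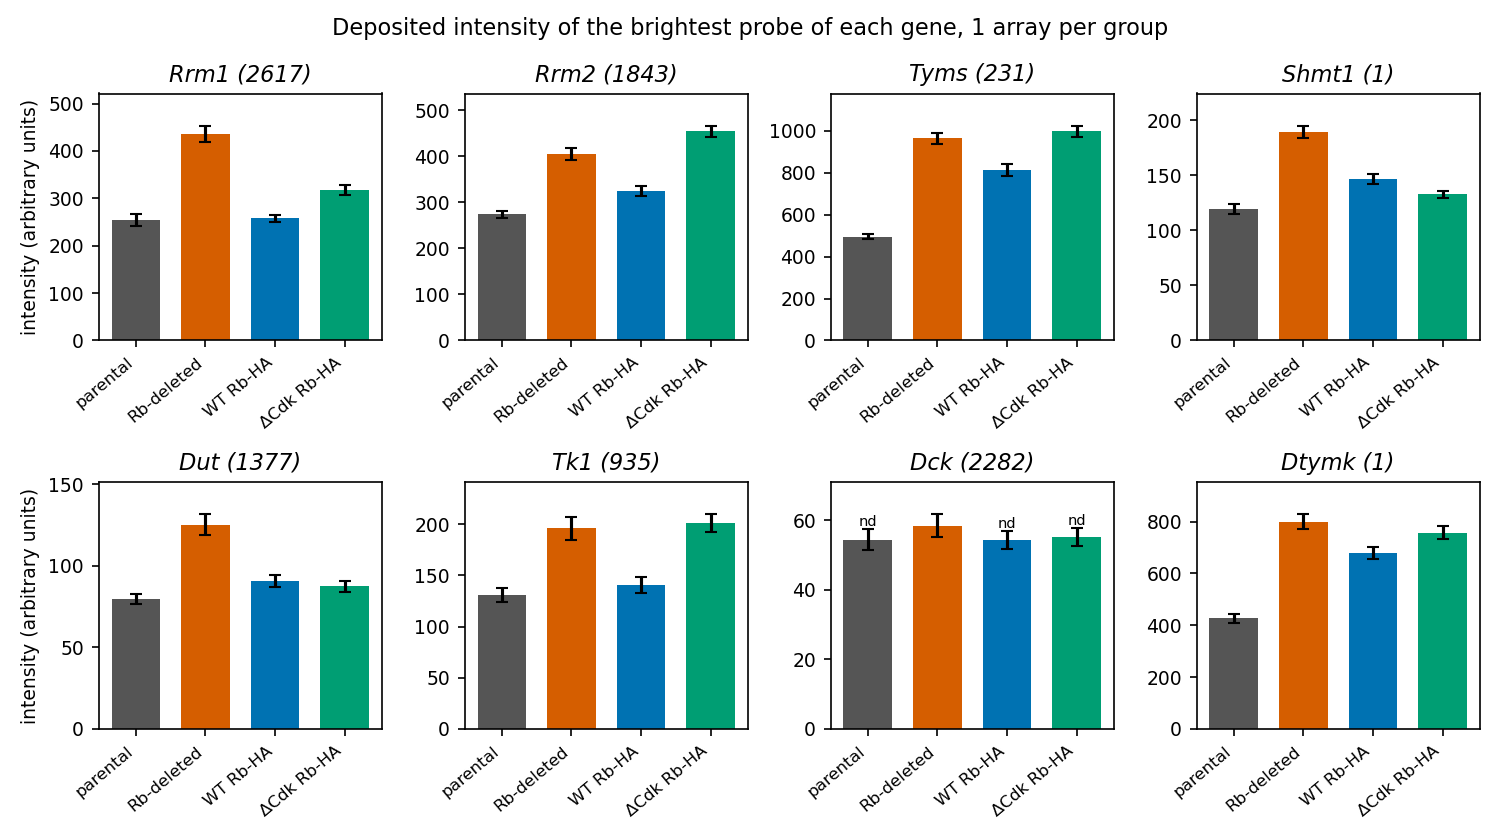
Deposited intensity (arbitrary units, linear axis from 0) of the brightest probe of each gene on the arrays of parental and Rb-deleted MEFs and of MEFs with WT Rb-HA or ΔCdk Rb-HA, with the probe's transcript position in parentheses. Bars are 1 array each, error bars are 1 bead standard error, and nd marks an array where the probe was not detected. The parental bar is the lowest for the 7 genes detected on every array, and their tallest bar is Rb-deleted or ΔCdk Rb-HA.

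Rrm1, the large subunit that carries the active site of ribonucleotide reductase, was lower with either form of Rb than in Rb-deleted MEFs. Its probe at position 2617 read 254 ± 12.3 (bead standard error) in parental, 436 ± 17.6 in Rb-deleted, 257 ± 7.25 in WT Rb-HA and 318 ± 11.2 in ΔCdk Rb-HA MEFs. The WT Rb-HA array sat at the parental level and the ΔCdk Rb-HA array between the others. In log2 ratio to parental this came to 0.88 (bead standard error 0.09) in Rb-deleted, 0.07 (0.09) in WT Rb-HA and 0.44 (0.09) in ΔCdk Rb-HA MEFs. Of the 3 steps in that order, only the lowest, from WT Rb-HA to parental, was within bead error. The second probe, at position 2521, read 190, 330, 239 and 267 and gave 0.90, 0.40 and 0.61. It kept the order of the arrays, with WT Rb-HA above parental beyond bead error. The probe at position 4389 was detected on no array.

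Rrm2, the small subunit that holds the radical and whose amount limits the enzyme outside S phase, had another order. Its probe at position 1843 read 274 ± 7.79 in parental, 405 ± 12.4 in Rb-deleted, 325 ± 11.2 in WT Rb-HA and 455 ± 12.3 in ΔCdk Rb-HA MEFs. ΔCdk Rb-HA was highest and WT Rb-HA lay between parental and Rb-deleted, and each step between neighbours was beyond bead error. The log2 ratios to parental were 0.65 (0.07), 0.33 (0.07) and 0.88 (0.06). A second probe at position 1859 shares 35 of its bases with the first and so is not a separate look at the transcript. It read 173, 210, 187 and 246, with ratios of 0.34, 0.14 and 0.63 and the same order. A dim probe at position 8 read 46.3, 65.3, 54.1 and 59.7 and was detected in Rb-deleted MEFs (at least 1.27-fold above parental) and ΔCdk Rb-HA MEFs (at least 1.08-fold above it) alone. On that probe Rb-deleted was above ΔCdk Rb-HA, within bead error.

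By its brightest probe, Tyms had the largest ratio to parental of the members on each of the 3 arrays of deleted cells. These are the 2 probes of thymidylate synthase that were detected, shown because they are separate stretches of the transcript. The largest ratios were those of position 231 alone.
Tyms, position 231: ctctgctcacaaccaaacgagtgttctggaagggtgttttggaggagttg
Tyms, position 313: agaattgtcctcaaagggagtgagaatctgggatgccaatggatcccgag

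The probe at position 231 read 495 ± 13.3 in parental, 964 ± 25.0 in Rb-deleted, 813 ± 27.5 in WT Rb-HA and 997 ± 27.2 in ΔCdk Rb-HA MEFs. All 3 arrays of deleted cells were well above parental, and WT Rb-HA was the lowest of those 3. The log2 ratios to parental were 1.05 (0.06), 0.79 (0.06) and 1.14 (0.06). ΔCdk Rb-HA and Rb-deleted differed by less than bead error. The probe at position 313 was dimmer, at 99.5, 146, 145 and 157, and its ratios of 0.71, 0.68 and 0.86 did not separate WT Rb-HA from Rb-deleted. Probes at positions 15, 1787 and 2879 were detected on no array. A probe annotated to the pseudogene Tyms-ps, which resembles the Tyms transcript, read 315, 532, 416 and 526, and signal of the gene and the pseudogene may be shared between such probes.

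Shmt1, the cytosolic enzyme that moves a one-carbon unit from serine to folate, was highest in Rb-deleted MEFs. Its probe at position 1 read 120 ± 4.65 in parental, 190 ± 5.48 in Rb-deleted, 147 ± 4.67 in WT Rb-HA and 133 ± 3.15 in ΔCdk Rb-HA MEFs. Both Rb-HA arrays were below Rb-deleted, and ΔCdk Rb-HA was the lower of the pair. Ratios to parental were 0.81 (0.09), 0.37 (0.09) and 0.22 (0.08), and each step was beyond bead error. The dimmer probe at position 941 read 53.4, 69.4, 59.0 and 68.9 and was not detected in parental MEFs. Against that array, Rb-deleted was at least 1.40-fold and ΔCdk Rb-HA at least 1.37-fold higher. That probe placed ΔCdk Rb-HA level with Rb-deleted (log2 ratio -0.03, bead standard error 0.15), unlike the brighter one.

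Dut, the hydrolase that keeps dUTP out of DNA and supplies dUMP to Tyms, was also highest in Rb-deleted MEFs on its brighter probe. At position 1377 it read 79.6 ± 3.23, 125 ± 6.51, 90.8 ± 3.46 and 87.6 ± 3.34 on the 4 arrays. Ratios were 0.88 (0.13), 0.24 (0.11) and 0.21 (0.12), so the Rb-deleted array stood alone and neighbours among the other 3 were within bead error. At position 164 the readings were 66.7, 85.0, 81.2 and 88.1 and the ratios 0.55, 0.39 and 0.59. There the 3 arrays of deleted cells were together, and the ratio in ΔCdk Rb-HA MEFs was larger than on the brighter probe, beyond bead error.

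Dtymk, which turns dTMP into dTDP for both the synthesis and the salvage route, gave 2 patterns depending on the probe. Its brightest probe, at position 1, read 427 ± 15.7 in parental, 800 ± 28.9 in Rb-deleted, 679 ± 21.8 in WT Rb-HA and 758 ± 26.7 in ΔCdk Rb-HA MEFs. The ratios were 1.00 (0.08), 0.76 (0.08) and 0.98 (0.08), with ΔCdk Rb-HA level with Rb-deleted and WT Rb-HA lower. The probes at positions 17 and 18 are almost 1 sequence. They are shown because 49 of their 50 bases, in capitals, are shared, so their match is a repeat of 1 measurement.
Dtymk, position 17: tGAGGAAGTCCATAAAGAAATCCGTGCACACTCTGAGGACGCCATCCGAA
Dtymk, position 18: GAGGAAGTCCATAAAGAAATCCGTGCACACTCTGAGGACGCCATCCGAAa

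They read 431, 681, 459 and 525 at position 17 and 318, 484, 349 and 374 at position 18. Ratios to parental were 0.74, 0.15 and 0.40 for the former and 0.69, 0.20 and 0.35 for the latter. On these probes WT Rb-HA was nearer to parental than at position 1. It was still above parental just beyond bead error, at 0.15 (0.08) and 0.20 (0.09). ΔCdk Rb-HA was 0.34 below Rb-deleted on the log2 scale. The log2 ratio of the probe at position 1 exceeded that at position 17 by 0.61 (0.11) in WT Rb-HA and by 0.58 (0.11) in ΔCdk Rb-HA MEFs. Against position 18 these gaps were 0.56 (0.12) and 0.63 (0.12). They were the 4 widest among the probes of a member detected on at least 3 arrays. In Rb-deleted MEFs position 1 also exceeded positions 17 and 18, by 0.26 (0.11) and 0.31 (0.11), beyond bead error.

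Tk1, whose product phosphorylates thymidine and is made in S phase, resembled Rrm2 in order. Its probe at position 935 read 131 ± 6.98 in parental, 196 ± 11.2 in Rb-deleted, 141 ± 7.93 in WT Rb-HA and 201 ± 8.47 in ΔCdk Rb-HA MEFs. The arrays fell into a low pair, parental and WT Rb-HA, and a high pair, Rb-deleted and ΔCdk Rb-HA, with each pair inside bead error. The ratios to parental were 0.71 (0.13), 0.13 (0.13) and 0.79 (0.11). The probe at position 917, which shares 32 bases with it, was near background at 51.8 to 58.3 and detected only in Rb-deleted MEFs, so it adds no order. Probes at positions 69 and 72, which share 48 bases, were detected on no array.

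Dck, the kinase that salvages deoxycytidine and purine deoxynucleosides, was at the edge of detection. Its 1 probe, at position 2282, read 54.5 ± 2.91, 58.5 ± 3.30, 54.4 ± 2.61 and 55.2 ± 2.60 on the 4 arrays and passed detection in Rb-deleted MEFs alone. There it was at least 1.07-fold above parental, a difference within bead error. No order of the arrays can be read for Dck at this signal. Medians over the members include its value unless stated.

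**Figure D2:**
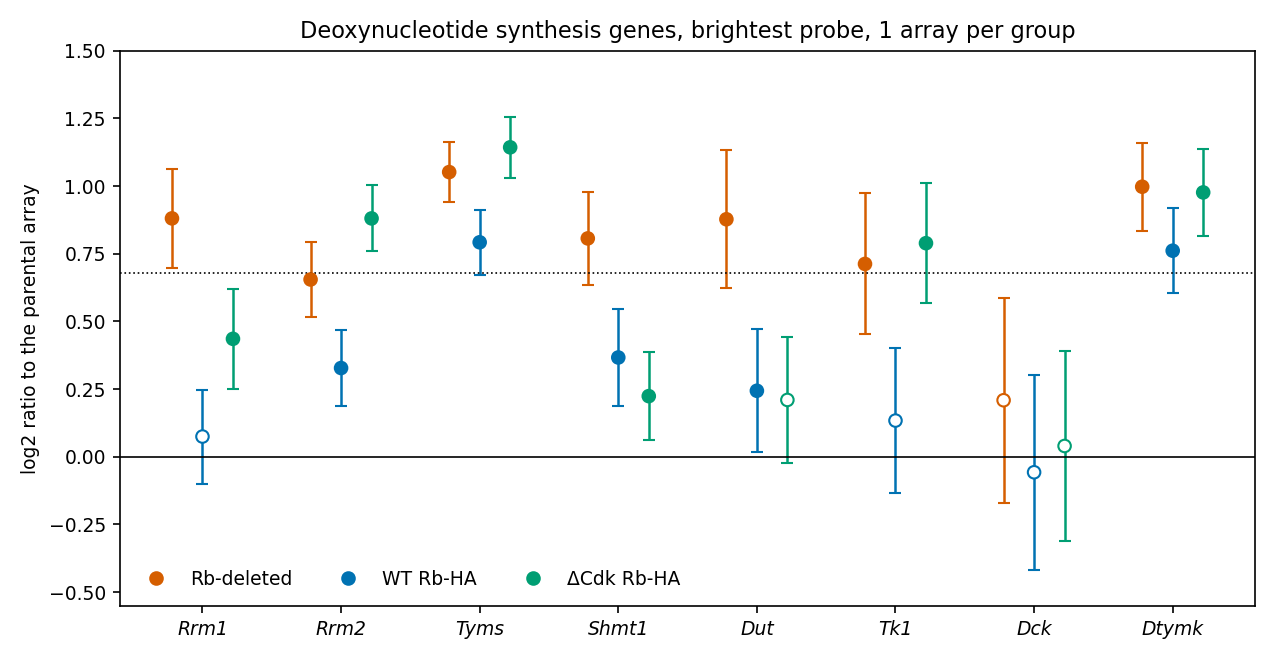
Log2 ratio to the parental array of each gene's brightest probe in Rb-deleted MEFs (orange) and in MEFs with WT Rb-HA (blue) or ΔCdk Rb-HA (green). Error bars are 2 bead standard errors, filled points are beyond them, and the dotted line marks 1.6-fold (0.68). Dck was detected in Rb-deleted MEFs alone, so its points have no readable order. ΔCdk Rb-HA lies near or above Rb-deleted for Rrm2, Tyms, Tk1 and Dtymk and near WT Rb-HA for Shmt1 and Dut.

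WT Rb-HA MEFs had lower levels of these genes than Rb-deleted MEFs. Both Rb-HA cultures received virus, the Rb-deleted culture did not, and no array had virus without Rb. Exogenous Rb and infection therefore cannot be told apart in comparisons with Rb-deleted MEFs. The 7 genes detected on every array all read below Rb-deleted beyond bead error, and Rrm1 alone passed 1.6-fold downward. Of all genes 53.7% read below Rb-deleted, 18.8% beyond bead error, and 0.484% passed 1.6-fold downward. The members' median log2 ratio was -0.38, against -0.02 for all genes. The log2 ratios were -0.81 (0.07) for Rrm1, -0.63 (0.12) for Dut, -0.58 (0.14) for Tk1, -0.44 (0.08) for Shmt1, -0.33 (0.07) for Rrm2, -0.26 (0.06) for Tyms and -0.24 (0.07) for Dtymk. Tyms and Dtymk had the smallest differences on these probes, but the Dtymk probes at positions 17 and 18 gave -0.59 and -0.49. All 13 probes detected on every array read below Rb-deleted.

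Compared with parental, WT Rb-HA MEFs had 2 of the 8 genes past 1.6-fold, Tyms at 0.79 and Dtymk at 0.76, while 0.888% of all genes were. Each passed on its brightest probe only, the second Tyms probe lying just below the threshold. All 7 genes detected on every array read above parental and 5 were beyond bead error (Rrm2, Tyms, Shmt1, Dut and Dtymk), where 51.3% and 23.6% of all genes did so. The median was 0.29. Rrm1 was the 1 ratio among the 7 genes detected on every array that turned sign with the scaling, at -0.01 when arrays were scaled by their medians alone.

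ΔCdk Rb-HA MEFs had 4 of the 8 genes past 1.6-fold above parental, Tyms at 1.14, Dtymk at 0.98, Rrm2 at 0.88 and Tk1 at 0.79. Dtymk at positions 17 and 18 and Rrm2 at position 1859 did not pass, and the count was 2 with the mean of each gene's detected probes. Of all genes 2.58% were past it, 26.1% were above parental beyond bead error and 48.9% were above it by any amount. All 7 genes detected on every array read above parental and 6 were beyond bead error. The members' median was 0.61, or 0.79 without Dck. Against Rb-deleted the members divided on their brightest probes. Dut (-0.67, bead standard error 0.12), Shmt1 (-0.58, 0.07) and Rrm1 (-0.44, 0.08) were lower beyond bead error, Rrm2 was higher (0.23, 0.06), and Tyms (0.09, 0.06), Tk1 (0.08, 0.12) and Dtymk (-0.02, 0.07) differed by less than bead error. None passed 1.6-fold downward, where 1.95% of all genes did, and Dut lay just short of it at 1.59-fold lower. Of the 7 genes detected on every array, 4 read lower and 3 of them beyond bead error, against 54.4% and 27.1% of all genes, and the members' median was -0.09, or -0.02 without Dck. The division depended in part on the probe. Dut at position 164 (0.05, 0.12) and Shmt1 at position 941 (-0.03, 0.15) were within bead error of Rb-deleted. Dtymk at positions 17 and 18 was lower beyond it, at -0.34 (0.07) on each. Second probes of Rrm1, Tyms and Rrm2 (position 1859) kept the class of the brightest.

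Set directly against each other, ΔCdk Rb-HA MEFs had higher levels than WT Rb-HA MEFs for 5 of the 7 genes detected on every array. All 5 were beyond bead error. These were Tk1 at 0.66 (0.12), Rrm2 at 0.55 (0.06), Rrm1 at 0.36 (0.07), Tyms at 0.35 (0.06) and Dtymk at 0.22 (0.07). Shmt1 was lower at -0.14 (0.07), beyond bead error, and Dut was level at -0.03 (0.11). No member passed 1.6-fold, which 0.84% of all genes did upward, while 48.5% of all genes were higher and 17.6% beyond bead error. Tk1, at 1.58-fold, lay just under it. The median was 0.28, against -0.01 for all genes. For Dut and Shmt1 the second probe read ΔCdk Rb-HA above WT Rb-HA, by 0.20 (0.12) and 0.42 (0.15), so the lower values rest on 1 probe each. The study describes both exogenous proteins as present at physiologic levels, but their amounts cannot be read from these arrays. A difference in amount, or between the cultures, cannot be told apart from the mutation here.

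**Figure D3:**
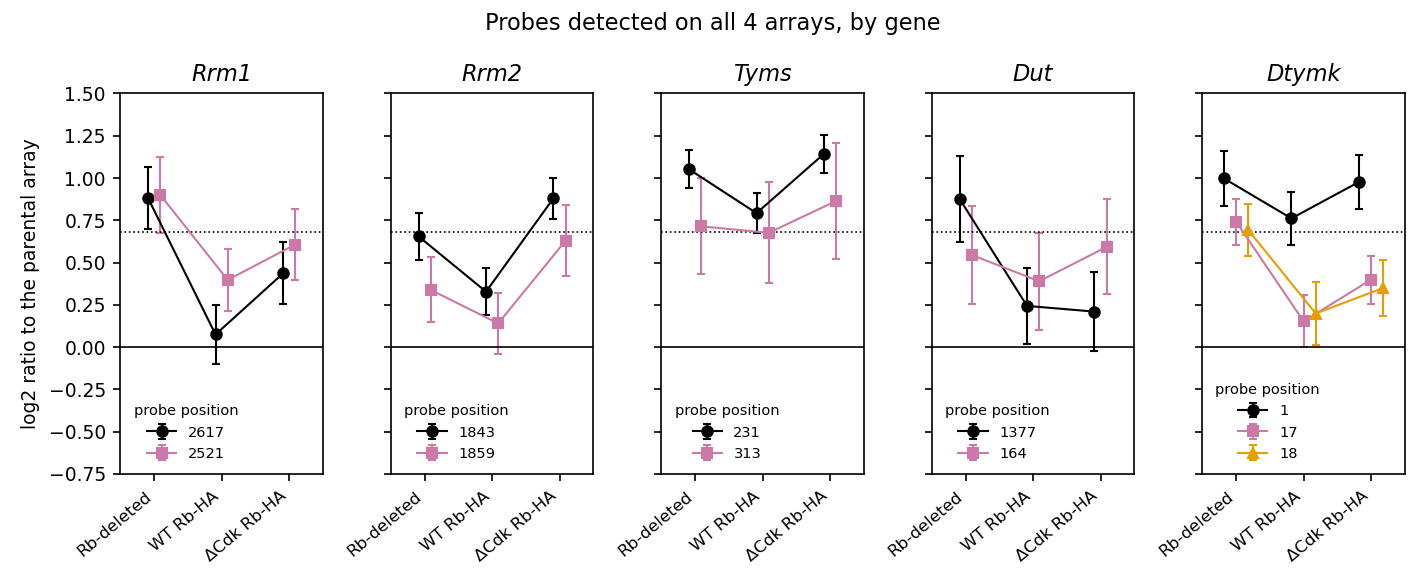
Log2 ratio to the parental array for every probe detected on all 4 arrays, in the 5 genes with more than 1 such probe. Error bars are 2 bead standard errors, black circles are the brightest probe of a gene, and the dotted line marks 1.6-fold. The probes of Rrm1, Rrm2 and Tyms keep 1 order of the arrays, and those of Dut differ in ΔCdk Rb-HA MEFs. Those of Dtymk differ on each array of deleted cells, and more on both Rb-HA arrays than in Rb-deleted MEFs.

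Across the brightest probes, parental was the lowest array for all 7 genes detected throughout. Rb-deleted was the highest for 4 of them (Rrm1, Shmt1, Dut and Dtymk) and ΔCdk Rb-HA for 3 (Rrm2, Tyms and Tk1). Second probes with a signal on at least 3 arrays could be set against the brightest 21 times over 3 ratios to parental, and 12 of these differed by more than 2 bead standard errors. All 13 probes detected on every array were nevertheless above parental on each of the 3 arrays. Past 1.6-fold they numbered 10 in Rb-deleted, 2 in WT Rb-HA and 5 in ΔCdk Rb-HA MEFs. These probe counts also include the overlapping pairs of Dtymk and Rrm2. All 3 ratios share the parental array, so an error in its signal moves them together.

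The rest of the deoxynucleotide pathway lay closer to parental in its median than the members did. Of 81 further genes listed by role, 65 were detected, and their medians relative to parental were 0.16, 0.10 and 0.12 in log2 ratio. Past 1.6-fold, 2 were higher and 3 lower in Rb-deleted, 3 higher and 3 lower in WT Rb-HA, and 5 higher and 2 lower in ΔCdk Rb-HA MEFs. Of all genes 2.14%, 0.888% and 2.58% were higher by that much on the 3 arrays, and 2.98%, 2.46% and 3.3% were lower. With so few pathway genes past the threshold, these counts are not read as a result about the pathway. The partners of ribonucleotide reductase did not follow Rrm1 and Rrm2. Rrm2b, the small subunit that p53 induces and that serves outside S phase, was at -0.39 (0.11), -0.06 (0.11) and -0.22 (0.12). Txnrd1, which reduces thioredoxin, was lower on all 3, at -0.87, -1.11 and -0.65. Thioredoxin itself (Txn1), at 0.07, 0.08 and 0.27, and the glutaredoxins Glrx, at -0.33, -0.35 and -0.25, and Glrx2, at 0.02, 0.09 and -0.08, were closer to parental.

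Enzymes that break down or cleanse the nucleotide pool differed among themselves. Dctpp1, a pyrophosphatase that removes dCTP and its modified forms and is listed on the array as 2410015N17Rik, had ratios of 1.21 (0.07), 0.86 (0.07) and 0.82 (0.06). Samhd1, which hydrolyses dNTPs, went the other way at -0.73, -1.04 and -1.10. Nudt1, which clears oxidised purine nucleotides, was dim at 61.6, 50.8, 60.4 and 86.7 and not detected in Rb-deleted MEFs. It was above parental in ΔCdk Rb-HA MEFs alone, at 0.75 (0.21). In that list of breakdown enzymes 10 of 15 genes were detected, and the median ratio to parental was 0.10, 0.08 and 0.17.

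Of 15 further nucleoside and nucleotide kinases 14 were detected, with median ratios of 0.20, 0.16 and 0.25, and 1 passed 1.6-fold against parental. This was Cmpk2, the mitochondrial UMP-CMP kinase and an interferon-induced gene, listed on the array as Tyki. It read 649, 160, 119 and 70.2 on the 4 arrays, with ratios of -2.15, -2.68 and -3.70.

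In the folate cycle, 8 of 13 listed genes were detected, and none passed 1.6-fold against parental on any array. Mthfd1, which interconverts folates in the cytosol, had ratios of 0.63 (0.08), 0.36 (0.07) and 0.31 (0.07). Shmt2, the mitochondrial partner of Shmt1, had 0.43, 0.25 and 0.43, and the folate carrier Slc19a1 had 0.37, 0.10 and 0.05. Mthfd2 (0.23, 0.02 and 0.09), Fpgs (0.18, -0.02 and -0.07) and Aldh1l2 (-0.31, -0.20 and -0.25) were nearer to parental. Aldh1l1 and Mthfs were dim and not detected in parental MEFs. Mthfs was at least 1.43-fold above that array with WT Rb-HA and at least 1.49-fold with ΔCdk Rb-HA, and Aldh1l1 at least 1.16-fold and at least 1.17-fold. Mthfs was also past 1.6-fold in ΔCdk Rb-HA above Rb-deleted MEFs at 0.68 (0.21). The probes of Ggh and Mthfd2l were not detected on any array.

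Among the synthesis routes for ribonucleotides, Umps, which makes UMP, stood out with ratios of 0.92 (0.08), 0.86 (0.08) and 1.02 (0.08), the 1 of 7 detected pyrimidine genes past 1.6-fold on any array against parental. Cad, the first enzyme of that route, was at 0.50, 0.25 and -0.24, and in ΔCdk Rb-HA it was 0.74 below Rb-deleted MEFs on the log2 scale. Of 16 purine genes, all detected, Adss was at 0.33, 0.69 and 0.91 and its muscle paralogue Adssl1 at -0.39, -0.16 and 0.77, both enzymes of AMP synthesis. None of 5 detected nucleoside transporters passed the filter.

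**Figure D4:**
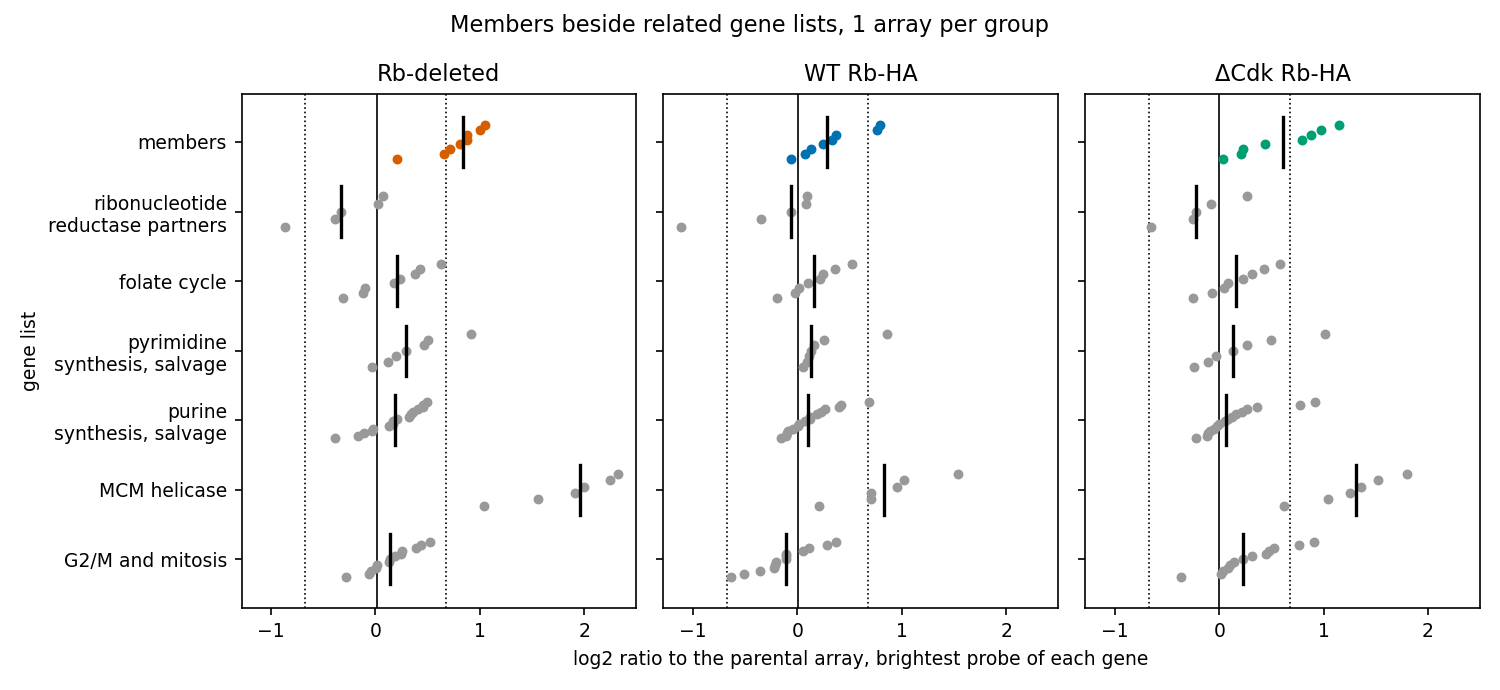
Log2 ratio to the parental array of the brightest probe of each detected gene in the member list (coloured) and 6 related lists (grey), with 1 panel for each array of deleted cells. Thick bars are list medians, the thin line is the median of all genes and dotted lines mark 1.6-fold each way. The members' median lies between that of the MCM genes and those of the other lists drawn, on all 3 arrays.

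The replicative helicase genes Mcm2 to Mcm7 served as a comparison of G1/S genes known to be E2F targets. Their medians were 1.96 in Rb-deleted, 0.83 in WT Rb-HA and 1.31 in ΔCdk Rb-HA MEFs, so the members, at 0.84, 0.29 and 0.61, had smaller ratios on each array. The 13 detected of 20 G2/M and mitosis genes had medians of 0.14, -0.11 and 0.22. On the WT Rb-HA array 12 of these 13 read below Rb-deleted and 1 above, with a median of -0.30. All 13 rose from the WT Rb-HA array to the ΔCdk Rb-HA array, by a median of 0.40. In these 2 comparisons the medians were -0.38 and 0.28 for the members and -0.95 and 0.34 for the MCM genes. Both differences were thus shared with the G2/M list, and their cause was not tested. Relative to Rb-deleted MEFs, all 6 MCM genes were lower with ΔCdk Rb-HA, where the members divided on their brightest probes.

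Genes with the most similar 3 ratios to parental were looked up for each member detected on every array, by the root mean square of the differences over 10827 genes. Nearest to Tyms were Ezh2, the methyltransferase of Polycomb complex PRC2, at a distance of 0.04, and the replication protein Rpa2 at 0.05. Ezh2 was also nearest to Dtymk, at 0.07, followed by Umps at 0.08. Rrm1 had the clamp loader subunit Rfc1 (0.07) and the tubulin regulator Stmn1 (0.08) among its nearest. For Rrm2 these were 2210021J22Rik (0.06), the centromere gene Cenph (0.07) and Arhgef19 (0.07), and for Tk1 they were Camk2n2 (0.08), Cenph (0.08) and Itgb3bp (0.12). Shmt1 and Dut shared Pold2, a subunit of DNA polymerase delta, and Zfp41 among their nearest genes, with Aarsd1 for Shmt1 and the lamin gene Lmnb1 for Dut. The histone genes Hist1h2ah and Hist1h2ao completed the sets of Tyms and Dtymk. Nearest to the members' median were Th1l, 2310007F04Rik, Wdr54, LOC100042405 and 4632417K18Rik. These distances rest on 3 ratios from 4 arrays.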

How the data were processed

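Whole-genome expression was measured on 4 Illumina BeadChip arrays, 1 per culture, grouped by the sample labels. The authors deposited the summarized intensity of 45281 probes, linear and not normalized, with a detection p-value, a bead standard error and a number of beads for each probe and array. How the authors normalized their own values is not given in the sources used here. From 35.2% to 37.0% of probes were detected per array, with a median of 44 beads per probe. Background was corrected with limma (version 3.58.1, R 4.3.3) by normexp from the detection p-values with an offset of 16, followed by quantile normalization and log2. Genes with a probe whose detection p-value was below 0.01 on any array were kept (12616 genes), each by its brightest probe. Bead standard errors were carried through each array's mapping. Folds against an undetected array are lower bounds, set against the higher of the probe's own value and the dimmest detected signal on that array.

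Members and gene lists were chosen with earlier results of these data known, so the counts are descriptions and carry no test. Named genes were the members with all probes, Rb1, every reductase partner and folate gene, other listed pathway genes past 1.6-fold in any of the 6 comparisons (at most 6 per comparison and direction), and the 3 genes nearest to each member and 5 nearest to their median. Some genes under this rule are not reported here. Symbols came from the array's annotation, with 34 of 40 date-like symbols restored through a RefSeq table. The Tyms-ps, Mcm2 to Mcm7 and marker values were added as context. Promoter sequences came from RefSeq (GRCm38.p6), where all 8 members matched. The normalization was tested on simulated data. Alternatives changed the background correction, scaling, detection filter, probe rule and threshold. Other steps used Python 3.11.15 (numpy 2.4.6, pandas 2.3.3, matplotlib 3.10.9).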

Additional observations from a re-analysis of the deposited data

Results flagged for a closer look

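Rrm2, the small subunit of ribonucleotide reductase, lay on opposite sides of its Rb-deleted level with the 2 forms of Rb. Its log2 ratio to Rb-deleted was -0.33 with WT Rb-HA but 0.23 with ΔCdk Rb-HA, each beyond 2 bead standard errors, and the overlapping probe at position 1859 gave -0.20 and 0.29. The separate probe at position 8 had the opposite sign with ΔCdk Rb-HA, at -0.23 (bead standard error 0.13, within 2 of these errors). The difference was not tested, since each condition has 1 array.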

How the results depend on the processing

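Of 114 values recomputed under the alternatives, 98 stayed within the range counted as unchanged, and all 48 median log2 ratios of the members kept their sign. Loosening the detection filter, or dropping the filter on dim probes, changed none of the values. Those alternatives are counted among the 98 and the 48 but add no check. In Rb-deleted against parental MEFs, the count of 6 genes past 1.6-fold became 3 without background correction, 3 with an offset of 50 and 1 at a 2-fold threshold, and the median became 0.62 with the offset of 50. In WT Rb-HA against parental MEFs, the count of 2 became 1 with median scaling, 1 with the mean of the detected probes and 0 at 2-fold. In ΔCdk Rb-HA against parental MEFs, the count of 4 became 2 with the mean of the detected probes and 1 at 2-fold. The median there became 0.79 over genes detected on all 4 arrays. Within the range counted as unchanged, the Rb-deleted count against parental was 5 with the mean of the detected probes and 7 at 1.5-fold. The ΔCdk Rb-HA count against parental was 3 without background correction and 3 with the offset of 50. The count of 1 in WT Rb-HA below Rb-deleted became 0 with the mean of the detected probes, 2 at 1.5-fold and 0 at 2-fold. The count of 0 became 1 in ΔCdk Rb-HA below Rb-deleted with median scaling and at 1.5-fold, and 1 in ΔCdk Rb-HA above WT Rb-HA at 1.5-fold. The cause was not tested. No paired analysis was possible because each group has 1 array, and none could be left out. Signal over background limits Dck, the Rrm2 probe at position 8 and the Shmt1 probe at position 941.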
